A study of Homo sapiens and Mus musculus with 33 samples.

Results

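Resting T cells labelled with 4-thiouridine were compared with T cells that had no label, by droplet-based single-cell sequencing of RNA 3' ends. 4-thiouridine (4sU) is a uridine analogue that cells build into new transcripts. Iodoacetamide (IAA) then alkylates the incorporated 4sU, and reverse transcription reads a C where the gene has a T, so that new and old RNA can be told apart. NOTE-seq does this inside fixed cells before the cells enter droplets. The comparison used here leaves conversions aside and sets the plain UMI counts per gene of the labelled library beside those of the unlabelled one.

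The labelled library holds lymph node T lymphocytes of the mouse at 0 h, which its file label calls unstimulated. The unlabelled library holds mouse naive T cells from lymph nodes and is titled as the SNP background, the sample that shows which mismatches exist without 4sU. The members were chosen by their labels and are 2 of the 33 samples of the series. Each condition is 1 library, with 1777 cell barcodes and 731209 UMIs in the 4sU 0 h library and 2816 barcodes and 1358518 UMIs in the no 4sU library. Libraries at 2, 4, 6 and 8 h of stimulation, all with 4sU, were used to see where the values lie. The labels do not give the 4sU dose or time of these libraries, the strain, sex, age or number of animals, or how naive cells were separated. They also do not say whether the no 4sU library was fixed or treated with IAA. 4sU, conversion chemistry, animals, sorting and library preparation therefore cannot be told apart in this comparison. With 1 library per condition there is no replicate check and no test: intervals below are 95% exact intervals that cover counting error only. In summed counts, fewer cells of a type and less RNA per cell cannot be told apart.

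A resting T cell is small, holds little RNA and devotes much of its messenger RNA to ribosomal proteins. Its quiescence is kept by factors such as Klf2, and it depends on interleukin 7 through Il7r. Short-lived transcripts, among them some noncoding RNAs, are renewed quickly, whereas ribosomal protein messages are known to be long-lived. Whether RNA turnover bears on the ratios below was not tested. Labelling with 4sU and alkylation are steps that a standard droplet protocol does not have.

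Both libraries had few UMIs per barcode. The median was 375 UMIs in the 4sU 0 h library (quartiles 275 and 514) and 408 UMIs in the no 4sU library (quartiles 225 and 667.25). Median genes per barcode were 221 in the 4sU 0 h library and 264 in the no 4sU library. When cells were thinned to 300 UMIs each, the medians were 189 genes in 1209 cells at 0 h and 199 genes in 1741 cells without 4sU. The depth distributions differed in shape: the no 4sU library had a group of barcodes under 200 UMIs and another near 700, and the 4sU 0 h library had a single broad peak between them. Barcodes under 300 UMIs made up 32.0% of the 4sU 0 h library and 38.2% of the no 4sU library. The 2 libraries shared 2 barcode sequences.

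**Figure D1:**
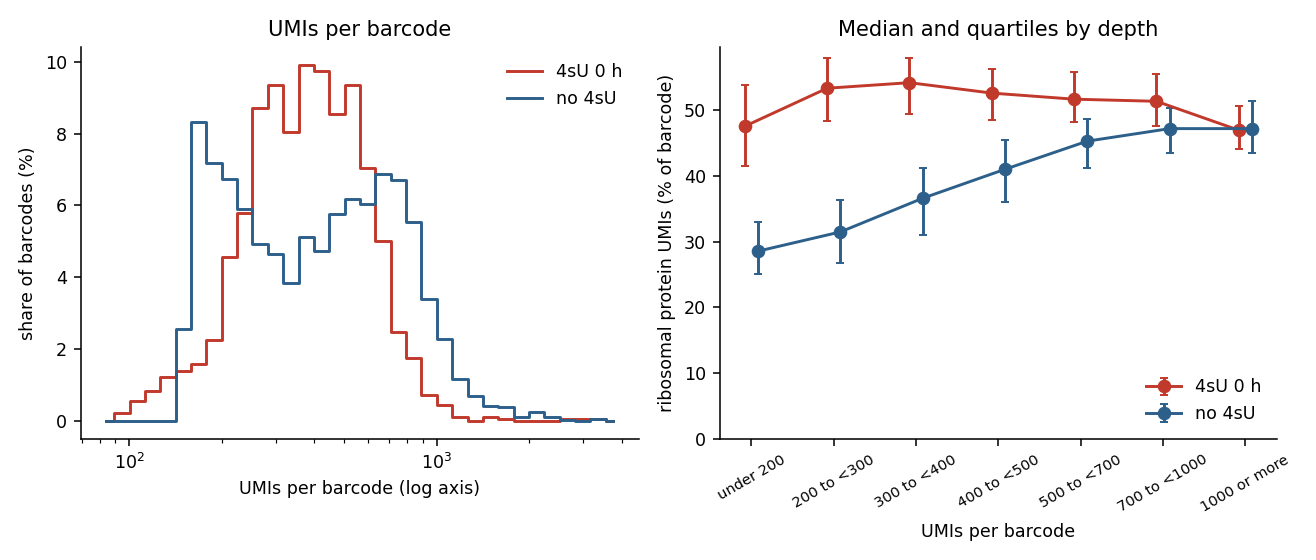
Left, share of barcodes (%) by UMIs per barcode (log axis) for the 4sU 0 h library (red) and the no 4sU library (blue). Right, share of a barcode's UMIs from cytosolic ribosomal protein genes by depth, as median and quartiles over barcodes. From 200 to under 300 UMIs the medians were 53.3% at 0 h and 31.5% without 4sU, and at 1000 UMIs or more they were 46.9% and 47.2% in the same order.

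The ribosomal protein share rose with depth in the no 4sU library and did not change steadily with depth at 0 h. In the no 4sU library ribosomal protein genes took a median of 28.5% of UMIs in the 508 barcodes under 200 UMIs and 47.2% in the 157 barcodes with 1000 or more. At 0 h the same medians were 47.5% in 144 barcodes and 46.9% in 16 barcodes. Between these ends the 0 h medians were higher, at 54.1% from 300 to under 400 UMIs and 51.3% from 700 to under 1000. For this reason values are also given for barcodes with at least 500 UMIs in both libraries, 487 at 0 h and 1144 without 4sU, an alternative chosen after seeing the data.

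T cell identity held in both libraries, and the resting state was read from activation genes. All 8 defining T cell markers (Cd3e, Cd3d, Cd3g, Trac, Trbc1, Trbc2, Lck and Thy1) were detected in both. At least 1 of their UMIs was found in 70.6% of barcodes at 0 h and in 80.3% without 4sU. At least 2 UMIs, the count used for B cell markers below, were found in 40.3% at 0 h and in 56.1% without 4sU. A list of 24 T cell activation genes, among them Cd69, Egr2 and Nr4a1, summed to 217 CPM (UMIs scaled to a common library total) at 0 h and 422 CPM without 4sU. The same list summed to between 7443 and 19934 CPM in the 2 to 8 h libraries. The no 4sU library, whose label gives no stimulation state, thus stood near the unstimulated end of the series on this list.

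Markers of other cells were rare. At least 2 UMIs of B cell markers were found in 6 of 1777 barcodes at 0 h (0.338%, interval 0.124 to 0.733%) and in 13 of 2816 without 4sU (0.462%, interval 0.246 to 0.788%). At least 1 UMI was found in 2.87% of barcodes at 0 h (interval 2.14 to 3.76%). Without 4sU that share was higher, at 6.57% (interval 5.68 to 7.55%). Of 9 defining B cell markers, 6 were at 0 at 0 h and 2 were at 0 without 4sU, and the heavy chain gene Ighm gave 53 of 57 marker UMIs at 0 h and 180 of 210 without 4sU. The summed B cell list of 18 genes was 84.8 CPM at 0 h and 163 CPM without 4sU. Of 5 myeloid markers Cst3, a cysteine protease inhibitor, gave 30 of 32 UMIs at 0 h and all 59 without 4sU. Of 4 stromal markers Pecam1, an adhesion molecule, gave 62 of 63 UMIs at 0 h and all 155 without 4sU. Natural killer markers gave 4 UMIs at 0 h and 1 UMI without 4sU, and red cell markers gave none in either library. Of the 6 sex-linked genes, Xist, which is transcribed from the inactive X chromosome, had 134 CPM at 0 h and 124 CPM without 4sU.

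CD8 transcripts were lower and Cd4 higher at 0 h. Cd8b1, a chain of the coreceptor for MHC class I, had 207 CPM at 0 h and 364 CPM without 4sU, a log2 ratio of -0.82 (interval -1.09 to -0.55). Cd4, the coreceptor for MHC class II, had 52.0 CPM from 38 UMIs at 0 h and 19.9 CPM from 27 UMIs without 4sU, a log2 ratio of 1.39 (interval 0.64 to 2.15). CD8 UMIs outnumbered Cd4 UMIs by 6.16 to 1 at 0 h and by 27.3 to 1 without 4sU. A Cd8a or Cd8b1 UMI was seen in 0 of the 38 barcodes with a Cd4 UMI at 0 h, which allows a share of up to 7.89% (3 barcodes taken as the limit of a count of 0), and in 4 of 27 such barcodes without 4sU. With 65 UMIs over both libraries Cd4 lay under the minimum for the test counts below. Whether the 2 libraries held different mixtures of CD4 and CD8 cells was not tested beyond these counts.

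Over all genes the labelled library had slightly lower values. Of 2510 genes with 100 or more UMIs over both libraries, the median log2 ratio of 0 h over no 4sU was -0.18 (quartiles -0.46 and 0.07). By a 2-fold mark, 6 genes were higher at 0 h (0.239% of those tested) and 82 were lower (3.27%). The whole counting interval lay past 2-fold for 2 of the 6 and for 22 of the 82. In barcodes with at least 500 UMIs the median moved to -0.03, and 4 of the 6 and 46 of the 82 stayed past 2-fold. Scaling moves the median over all genes as well, so ratios below are best read against -0.18 and not against 0.

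**Figure D2:**
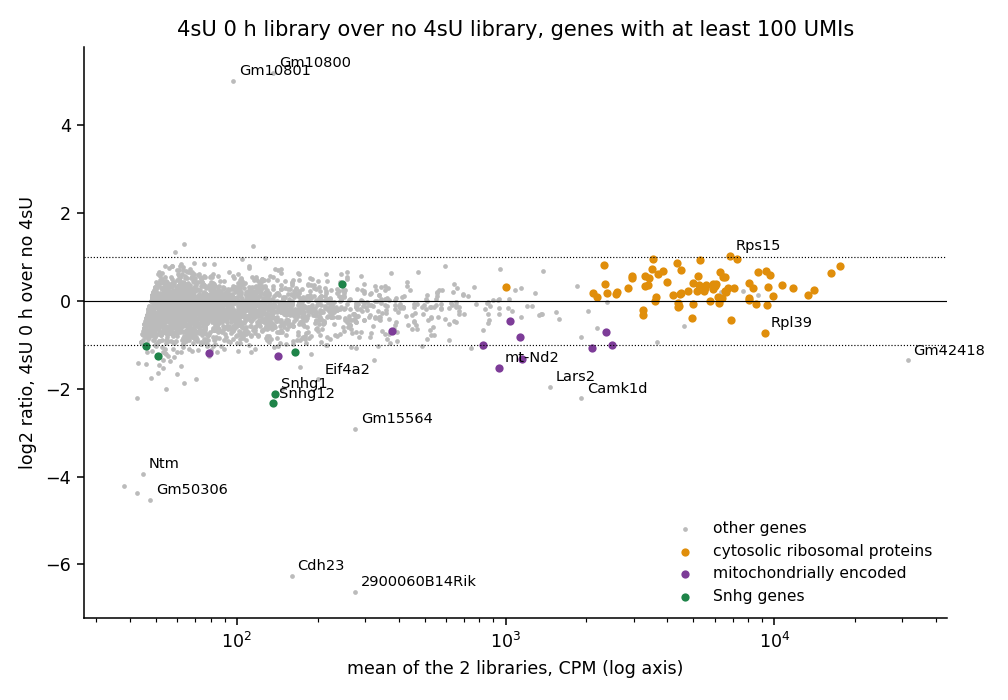
Log2 ratio of the 4sU 0 h library over the no 4sU library against the mean CPM of both (log axis), 1 point per gene with 100 or more UMIs over both. Dotted lines mark 2-fold; ribosomal protein genes (orange) lie mostly above 0 at high levels, mitochondrially encoded genes (purple) lie between -1.53 and -0.46, and a few single loci lie beyond 4 log2 units in either direction.

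The widest ratios belonged to single loci that were nearly silent in 1 of the libraries. 2900060B14Rik, an annotated locus for which no role is given here, had 4 UMIs (5.47 CPM) at 0 h and 738 UMIs (543 CPM) without 4sU, a log2 ratio of -6.63 (interval -8.51 to -5.27). Its level in the 2, 4, 6 and 8 h libraries was 2.63, 5.71, 1.57 and 8.44 CPM, so all 5 labelled libraries lay below 10 CPM. Cdh23, which encodes a cadherin of hair cell tip links, had 3 UMIs at 0 h and 429 without 4sU, a log2 ratio of -6.27 (interval -8.55 to -4.71). Cdh23 was at 25.3 to 47.4 CPM in the 2 to 8 h libraries, above its 4.10 CPM at 0 h and below its 316 CPM without 4sU.

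A further 3 loci had no UMI at all at 0 h. Gm50306 had 129 UMIs without 4sU and was 23.1-fold lower at 0 h, with 3 UMIs in the library taken as the floor for a count of 0. On the same floor B930036N10Rik, with 116 UMIs without 4sU, was 20.8-fold lower at 0 h. The gap of 4930558K02Rik, with 103 UMIs without 4sU, was 18.5-fold. The upper limits of the exact log2 intervals were -4.21, -4.06 and -3.88 for the 3 loci in this order. Gm50306 was at 0 in all 5 labelled libraries. Ntm, a neural adhesion molecule of the immunoglobulin superfamily, had 5.47 CPM at 0 h and 83.9 CPM without 4sU, and it stayed between 1.57 and 8.44 CPM at 2 to 8 h. In barcodes with at least 500 UMIs Gm50306 was at 53.6 CPM without 4sU, B930036N10Rik at 96.0, 4930558K02Rik at 29.0 and Ntm at 38.0 CPM. None of them had a UMI at 0 h there, and their log2 ratios on the same floor were -2.51, -3.35, -1.62 and -2.01. Over all barcodes those ratios were -4.53, -4.38, -4.21 and -3.94. The floor of 3 UMIs is a larger share of the fewer UMIs in these deeper barcodes.

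Cdh23 and 2900060B14Rik did not follow depth in the same way. In the no 4sU library Cdh23 took 0.0807% of UMIs in barcodes under 300 UMIs and 0.0172% in barcodes of 500 or more. For 2900060B14Rik the same shares were 0.0226% and 0.0612%. With barcodes of at least 500 UMIs in both libraries their log2 ratios were -4.78 and -6.02.

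In the other direction 2 predicted loci stood apart. Gm10800 had 194 UMIs (265 CPM) at 0 h and 10 UMIs (7.36 CPM) without 4sU, a log2 ratio of 5.17 (interval 4.26 to 6.25). Gm10801 had 137 UMIs (187 CPM) at 0 h and 8 UMIs (5.89 CPM) without 4sU, a log2 ratio of 4.99 (interval 3.97 to 6.23). No role is given to them here, and reads that match several copies of such a sequence can be split or dropped by counting. Gm10800 was at 211, 92.5, 109 and 92.9 CPM, and Gm10801 at 141, 84.5, 82.6 and 54.9 CPM, at 2, 4, 6 and 8 h, so every labelled library lay above the no 4sU library for both. Their ratios were 5.10 and 5.08 in barcodes with at least 500 UMIs.

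Of the 4 other genes past 2-fold on the high side, Rps15 is described with the ribosomal proteins. Hdac5, a class IIa histone deacetylase, had 90.3 CPM at 0 h and 36.8 CPM without 4sU. Trim30a, an interferon-inducible TRIM protein, had 161 CPM at 0 h and 67.7 CPM without 4sU, and Gm48099 had 80.7 CPM at 0 h and 37.5 CPM without 4sU. Hdac5, Trim30a and Gm48099 kept a ratio above 0 in barcodes with at least 500 UMIs, where that of Hdac5 was 0.83 (interval -0.08 to 1.71). Just under the mark stood Gm12840 (0.98), Uqcc3, an assembly factor of respiratory complex III (0.95), and St8sia6, a sialyltransferase (0.85).

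Transcripts assigned to Gm42418 were the most abundant feature of the unlabelled library. Gm42418 overlaps the ribosomal RNA repeat, so its counts may hold ribosomal RNA. It had 17575 CPM at 0 h and 45131.5 CPM without 4sU, 2.57-fold lower at 0 h with a log2 ratio of -1.36 (interval -1.39 to -1.33). The 2, 4, 6 and 8 h libraries held 17704, 17389, 14236 and 13176 CPM, so the 5 labelled libraries lay within a narrow band below the unlabelled one. AY036118, which also overlaps ribosomal RNA, had 2515 CPM at 0 h and 4796 CPM without 4sU, and 2553 to 2944 CPM at 2 to 8 h.

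Several genes of quite different roles showed the same order of libraries. Camk1d, a calcium and calmodulin dependent kinase, had 673 CPM at 0 h and 3145 CPM without 4sU, a log2 ratio of -2.22 (interval -2.36 to -2.09). Lars2, the mitochondrial leucyl-tRNA synthetase, had 600 CPM at 0 h and 2334 CPM without 4sU, a log2 ratio of -1.96 (interval -2.11 to -1.81). Gm15564 had 64.3 CPM at 0 h and 487 CPM without 4sU, a log2 ratio of -2.92 (interval -3.38 to -2.49). For all 3 the highest labelled library stayed below the no 4sU library: 673 CPM for Camk1d, 693 CPM for Lars2 and 64.3 CPM for Gm15564. Cdk8, the Mediator kinase, went the other way, with 1693 CPM at 0 h, 1348 to 1737 CPM at 2 to 8 h and 1059 CPM without 4sU. Cdk8 and AY036118 were picked for description after their values were seen.

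**Figure D3:**
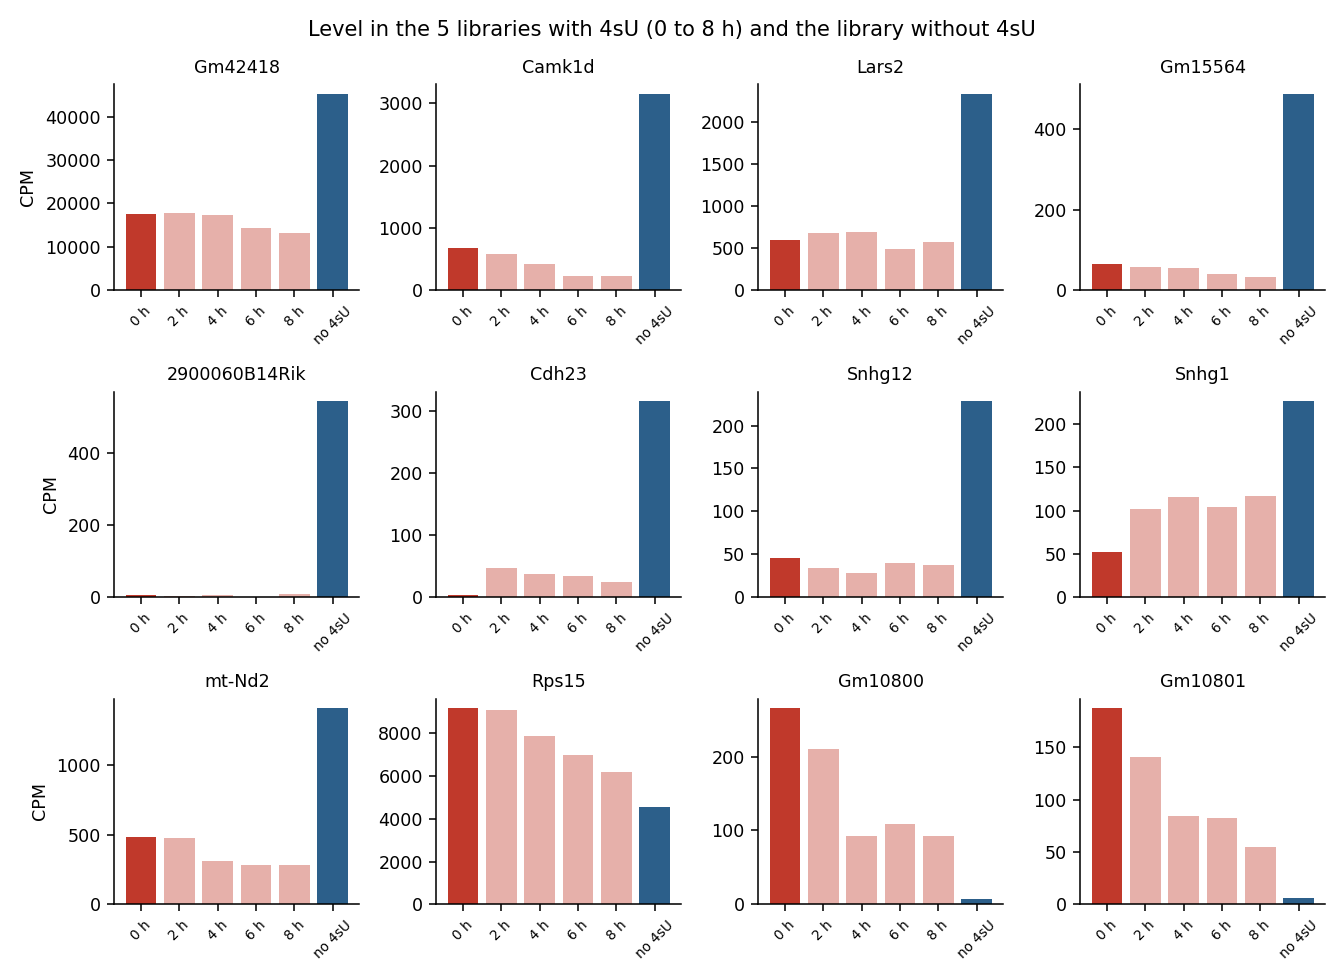
CPM of 12 genes in the libraries with 4sU at 0 h (dark red) and at 2, 4, 6 and 8 h of stimulation (light red), and in the library without 4sU (blue), 1 library per bar. For Gm42418, Camk1d, Lars2, Gm15564, 2900060B14Rik, Cdh23, Snhg12, Snhg1 and mt-Nd2 the blue bar is the highest of the 6, and for Rps15, Gm10800 and Gm10801 it is the lowest.

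Mitochondrially encoded genes were lower at 0 h as a group. These genes specify subunits of respiratory complexes I, III, IV and V and are transcribed inside the mitochondrion. Their 13 genes summed to 8613 CPM at 0 h and 16716 CPM without 4sU, a log2 ratio of -0.96 (interval -0.997 to -0.916). The 2 to 8 h libraries summed to between 7828 and 9491 CPM, so the 5 labelled libraries lay together. Of 11 genes tested 7 were past 2-fold lower, where 3.27% of all genes were, none was higher, and the median was -1.01 against -0.18 over all genes.

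Members of the mitochondrial group differed in size of the gap but not in direction. Among complex I subunits mt-Nd2 had 485 CPM at 0 h and 1404 CPM without 4sU, the lowest ratio of the 11 at -1.53 (interval -1.70 to -1.37), and mt-Nd3 had the smallest gap of that complex at -0.68. mt-Cytb, of complex III, had 658 CPM at 0 h and 1641 CPM without 4sU, a ratio of -1.32. Among complex IV subunits mt-Co3 was at -1.01, mt-Co1 at -0.70 and mt-Co2 at -0.46, the smallest gap of all 11. All 11 were above every labelled library in the no 4sU library, where 43.1% of all genes were. In barcodes with at least 500 UMIs the group median was -0.997. Of 44 nuclear-encoded subunits of the respiratory chain tested, none was past 2-fold and the median was -0.05.

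Small nucleolar RNA host genes were the third group with wide ratios. Snhg transcripts carry small nucleolar RNAs in their introns, and their spliced RNA is known to be short-lived. Snhg12 had 45.1 CPM at 0 h and 228 CPM without 4sU, a log2 ratio of -2.34 (interval -2.90 to -1.82). Snhg1 had 52.0 CPM at 0 h and 226 CPM without 4sU, a log2 ratio of -2.12 (interval -2.65 to -1.63). Both stayed below the no 4sU library at 2 to 8 h, at 28.5 to 40.1 CPM for Snhg12 and 101 to 117 CPM for Snhg1. Of the 17 Snhg symbols in the files 6 had at least 100 UMIs, and 5 of these were past 2-fold lower, where 3.27% of all genes were, Snhg4, Snhg9 and Snhg3 being at -1.26, -1.17 and -1.04. Snhg8 went the other way, with 279 CPM at 0 h and 213 CPM without 4sU. The 17 were gathered by symbol after the values of Snhg1 and Snhg12, both among the 5, were seen. Among barcodes with at least 500 UMIs 3 of the 6 were past 2-fold lower, where 89 of all 2510 genes were, with Snhg4 at -0.998 and Snhg3 at -0.89.

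Other named genes on the low side came from several pathways. Eif4a2, a helicase of translation initiation, had 90.3 CPM at 0 h and 312 CPM without 4sU, with 42.5 to 60.5 CPM at 2 to 8 h. Ifi47, an interferon-induced GTPase, had 27.4 CPM at 0 h and 100.1 CPM without 4sU, and AW112010, an interferon-inducible transcript, had 58.8 CPM at 0 h and 236 CPM without 4sU. Tpst2, a tyrosylprotein sulfotransferase, had 15.0 CPM at 0 h and 69.9 CPM without 4sU. Of the 82 genes past 2-fold lower, 67 were above every labelled library in the no 4sU library, where 43.1% of all genes were. These genes were chosen for a higher level than at 0 h, which fixes part of that count. The genes nearest the mark on the low side were mt-Co3 at -1.005 inside it and Dhx9, an RNA helicase, at -0.998 outside it.

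Cytosolic ribosomal protein genes made up the bulk of the opposite shift. Their summed level was 518893 CPM at 0 h and 421608 CPM without 4sU, so that they held 51.9% of UMIs at 0 h and 42.2% without 4sU. All 79 were tested, 66 had a ratio above 0, and their median was 0.29 against -0.18 over all genes. Only Rps15, a small subunit protein, was past 2-fold higher (0.239% of all genes were), with 9155 CPM at 0 h and 4546 CPM without 4sU. The medians of the subunits were close, at 0.30 over 47 large subunit genes and 0.29 over 32 small subunit genes.

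Ribosomal protein genes were far from uniform. Rplp2, of the stalk, was at 0.94. Rpl12, at the stalk base, was also at 0.94, with 6949 CPM at 0 h and 3630 CPM without 4sU. Rpl39 stood at the other end, with 6908 CPM at 0 h and 11497 CPM without 4sU, a log2 ratio of -0.73 (interval -0.78 to -0.69). Next to it lay Rps15a at -0.43, Rps27a at -0.39 and Rps4x at -0.33. For Rpl39 the 2 to 8 h libraries held 4575 to 7009 CPM, and for Rpl12 they held 5665 to 6796 CPM, so both genes set the no 4sU library apart from all labelled ones, in opposite directions. Of the 79 genes, 39 were below every labelled library in the no 4sU library, where 9.16% of all genes were, and 7 were above.

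The ribosomal protein shift depended on depth. In barcodes with at least 500 UMIs the genes summed to 513222 CPM at 0 h and 460418 CPM without 4sU, the median was 0.14, and 55 of 79 had a ratio above 0. Rps15 then stood at 0.89, Rps29 at 0.65 and Rpl39 at -0.71. Rps27 and Rps24, above 0 over all barcodes (0.24 and 0.12), were below 0 in these deeper barcodes (-0.11 and -0.17).

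Translation factors were split. Of 23 tested 1 was past 2-fold lower, Eif4a2, near the 3.27% of all genes, and the median was -0.09. Eef1b2, an exchange factor of elongation, had 1187 CPM at 0 h and 717 CPM without 4sU, a ratio of 0.73 (interval 0.59 to 0.86). Eif5, an initiation factor, had 118 CPM at 0 h and 217 CPM without 4sU, a ratio of -0.88, and Eif4a1 was at -0.56.

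**Figure D4:**
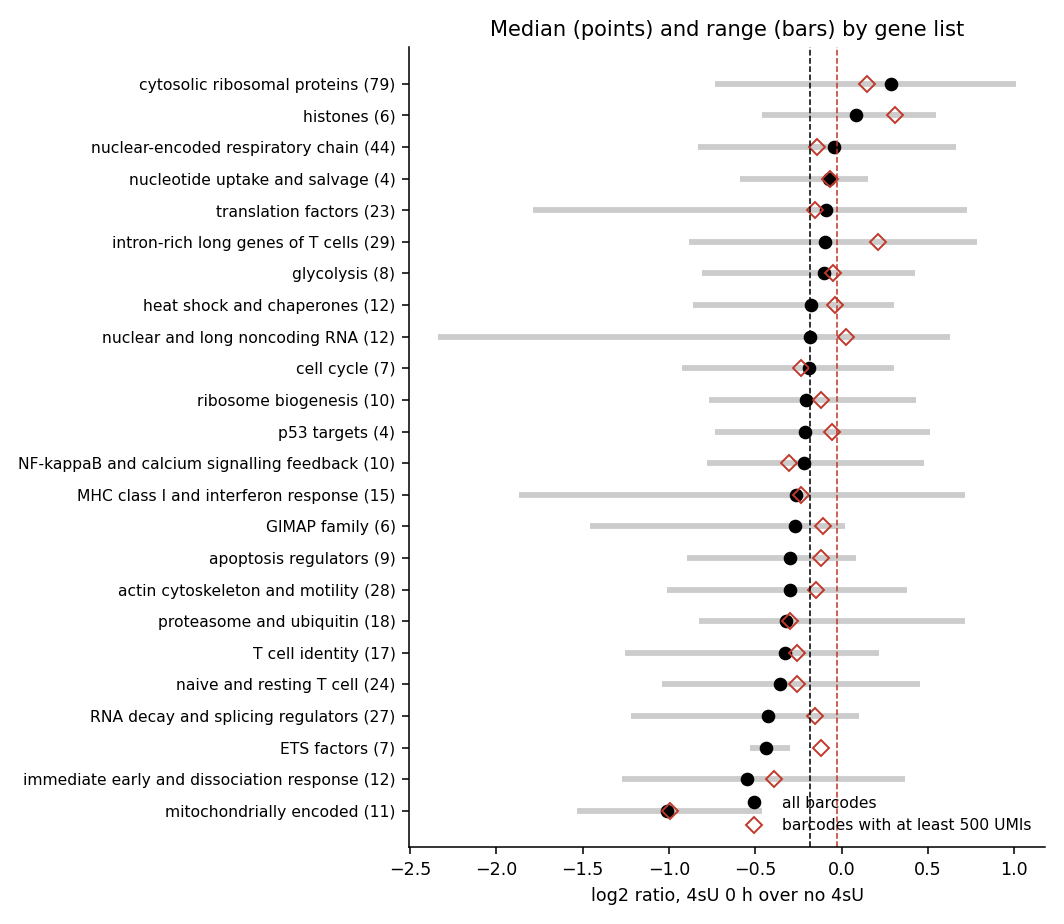
Log2 ratio of 0 h over no 4sU for gene lists with at least 4 members tested (number in brackets), as median over all barcodes (black), median over barcodes with at least 500 UMIs (red diamonds) and range over members (grey bars). Dashed lines mark the medians over all 2510 genes, -0.18 and -0.03. Mitochondrially encoded genes lie farthest left at -1.01 and ribosomal proteins farthest right at 0.29.

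The summed level of resting T cell genes was lower at 0 h than without 4sU, and both libraries lay above the stimulated ones. The list of 27 naive and resting genes summed to 8230 CPM at 0 h and 10670.5 CPM without 4sU, while the 2 to 8 h libraries held 1320 to 2819 CPM. Of 24 tested 2 were past 2-fold lower, where 3.27% of all genes were, 17 lay below the median over all genes, and the list median was -0.36. Klf2, which drives the receptors for lymph node circulation, had 222 CPM at 0 h and 451 CPM without 4sU, a log2 ratio of -1.03 (interval -1.29 to -0.77). Il7r, the interleukin 7 receptor, had 321 CPM at 0 h and 660 CPM without 4sU, a log2 ratio of -1.04 (interval -1.25 to -0.83). Btg1 and Txnip, both linked to quiescence, were at -0.88 and -0.87. In barcodes with at least 500 UMIs Klf2 was at -1.22 and Il7r at -0.65, so 1 stayed past 2-fold, 8 of the 24 were above 0, and the list summed to 8365 CPM at 0 h and 9584 CPM without 4sU.

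Of 17 T cell identity genes tested 1 was past 2-fold lower, near the 3.27% of all genes, and 12 lay below the median over all genes. The list median was -0.33, and -0.26 in barcodes with at least 500 UMIs. The gene past 2-fold was Cd27, a costimulatory receptor, with 46.5 CPM at 0 h and 111 CPM without 4sU. Lck, the kinase that starts receptor signalling, had 156 CPM at 0 h and 277 CPM without 4sU. Trbc1, a receptor beta constant segment, had 397 CPM at 0 h and 686 CPM without 4sU, and Cd28, the costimulatory receptor, was at -0.78. B2m, the light chain of MHC class I, had 1385 CPM at 0 h and 2438 CPM without 4sU, a ratio of -0.82 (interval -0.92 to -0.71). Of 30 MHC class I and interferon genes 15 were tested, with a median of -0.26. Among the 15, 1 was past 2-fold lower, Ifi47, where 3.27% of all genes were. Psmb8, an immunoproteasome subunit of that list, was higher, with 172 CPM at 0 h and 105 CPM without 4sU.

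Immediate early and dissociation response genes, whose messages are known to be short-lived, had a median of -0.55, against -0.18 over all genes. Of 12 tested 1 was past 2-fold lower, Ier5, where 3.27% of all genes were, and 8 lay below the median over all genes. Ier5 had 34.2 CPM at 0 h and 82.4 CPM without 4sU, a ratio of -1.27 (interval -1.96 to -0.63). Mcl1, a survival protein listed among the apoptosis regulators, had 120 CPM at 0 h and 224 CPM without 4sU, and Klf6 had 90.3 CPM at 0 h and 168 CPM without 4sU. Nr4a3, an orphan receptor listed among the T cell activation genes, had 49.2 CPM at 0 h, 1337 CPM at 2 h and 97.9 CPM without 4sU. Not all of Mcl1, Klf6 and Nr4a3 belong to the immediate early list. The list median in barcodes with at least 500 UMIs was -0.39.

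Fli1 was close in the 2 libraries. This gene, the ETS factor named in the title of the study, had 124 UMIs (170 CPM) at 0 h and 291 UMIs (214 CPM) without 4sU, a log2 ratio of -0.34 (interval -0.65 to -0.03). In barcodes with at least 500 UMIs the ratio was 0.01 (interval -0.43 to 0.44). Its level at 2, 4, 6 and 8 h was 40.8, 7.99, 12.6 and 11.3 CPM, all below both resting libraries. The 7 ETS factors tested were all below 0, from -0.53 for Elf1 to -0.30, with a median of -0.44. With at least 500 UMIs 4 of the 7 were below 0 and the median was -0.12.

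Splicing regulators and the nuclear RNA Neat1 moved with depth in the unlabelled library. Of 27 genes in the list of RNA decay and splicing regulators 2 were past 2-fold lower, where 3.27% of all genes were, and 20 lay below the median over all genes, with a list median of -0.43. Srsf5, a splicing factor of the SR family, had 114 CPM at 0 h and 264 CPM without 4sU, a ratio of -1.22, and Tra2b, a related factor, was at -1.09. Neat1, the RNA scaffold of nuclear paraspeckles, had 133 CPM at 0 h and 239 CPM without 4sU, a ratio of -0.85 (interval -1.19 to -0.52). In barcodes with at least 500 UMIs Neat1 was at -0.01 (interval -0.53 to 0.50), Srsf5 at -0.74, and the median of the list at -0.15, with none past 2-fold lower and 16 of 27 below 0.

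The same genes took a larger share of UMIs in the shallow than in the deep barcodes of the no 4sU library, and they were not alone in this. Neat1 was at 546 CPM in its barcodes under 300 UMIs and at 142 CPM in those with 500 or more. At 0 h the same depths gave 146 CPM and 141 CPM. Malat1, another nuclear RNA, did not follow Neat1. It was at 2049 CPM and 2203 CPM in the same order without 4sU, and at 1236 CPM and 2288 CPM at 0 h. The list of splicing and decay regulators took 1.35% of UMIs in the shallow and 0.784% in the deep barcodes of the no 4sU library, and 0.690% and 0.678% at 0 h. The naive and resting T cell list took 1.38% and 0.958% in the same order without 4sU, and 0.812% and 0.836% at 0 h. Mitochondrially encoded genes went the other way there, with 1.05% in the shallow and 1.87% in the deep barcodes without 4sU, and 0.772% and 0.963% at 0 h. So did ribosomal protein genes without 4sU, at 30.7% in the shallow and 46.0% in the deep barcodes. Gm42418 was similar at both depths, at 4.16% and 4.54% without 4sU and at 1.59% and 1.89% at 0 h. What the shallow barcodes of the no 4sU library hold was not tested.

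Long, intron-rich genes of T cells lay slightly above the median over all genes. Of 29 tested none was past 2-fold, 18 were above -0.18 and the median was -0.10. With barcodes of 500 UMIs or more the median was 0.21 against -0.03 over all genes, and 22 of 29 were above 0. Camk4 and Itpr1, a calcium release channel, were past 2-fold higher there, where 23 of all 2510 genes were. Camk4, a calcium-dependent kinase, had 752 CPM at 0 h and 437 CPM without 4sU, a ratio of 0.78 (interval 0.61 to 0.95). Dock2, an exchange factor for Rac, had 431 CPM at 0 h and 796 CPM without 4sU, a ratio of -0.89 (interval -1.07 to -0.70).

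The remaining lists had few members past 2-fold. Heat shock and chaperone genes (12 tested), p53 targets (4 tested), ribosome biogenesis genes (10 tested) and glycolysis genes (8 tested) had medians of -0.18, -0.21, -0.21 and -0.10, with none past 2-fold. Integrated stress response genes had 2 members tested, the factors Atf4 at -0.54 and Xbp1 at -0.43. Genes of nucleotide uptake and salvage, which import and recycle nucleosides, had 4 members tested with a median of -0.07. Proteasome and ubiquitin genes (18 tested), cell cycle genes (7 tested), apoptosis regulators (9 tested) and feedback genes of NF-kappaB and calcium signalling (10 tested) had medians of -0.33, -0.19, -0.30 and -0.22, also with none past 2-fold. Of 6 GIMAP GTPases tested, which support lymphocyte survival, 1 was past 2-fold lower, Gimap8, where 3.27% of all genes were. Gimap8 had 27.4 CPM at 0 h and 75.1 CPM without 4sU, and the list median was -0.27. The log2 ratio of Gimap8 was -1.46, and -0.69 in barcodes with at least 500 UMIs. Of 12 nuclear and long noncoding RNAs 3 were past 2-fold lower (Snhg12, Snhg1 and Gm42418) and the median was -0.18, against 3.27% of all genes past 2-fold lower. Of 28 genes of the actin cytoskeleton 1 was past 2-fold lower, Tagln2, near the 3.27% of all genes. Tagln2 had 73.9 CPM at 0 h and 149 CPM without 4sU, and it was at -0.97 in barcodes with at least 500 UMIs. The actin list had a median of -0.30, and 20 of the 28 lay below the median over all genes.

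Counting cells in place of UMIs gave the same order for the leading genes. With every cell thinned to 300 UMIs, and 568 shallower cells left out at 0 h and 1075 without 4sU, Camk1d had a UMI in 17.9% of cells at 0 h (interval 15.8 to 20.2%) and in 58.3% without 4sU (interval 55.9 to 60.6%). mt-Nd2 had a UMI in 12.4% of cells at 0 h and in 36.2% without 4sU. 2900060B14Rik was seen in 0.0827% of cells at 0 h and in 15.7% without 4sU, and Cdh23 in 0 of 1209 cells at 0 h, which allows a share of up to 0.248% by the same limit of 3 cells, and in 6.61% without 4sU. In the no 4sU library these loci were spread over many cells.

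On the high side Gm10800 had a UMI in 8.27% of thinned cells at 0 h (interval 6.78 to 9.97%) and in 0.172% without 4sU (interval 0.0355 to 0.503%). Rps15 was seen in 93.3% of cells at 0 h and in 74.3% without 4sU, and Rpl12 in 87.2% and 65.2% in the same order. Gm42418 was seen in 98.3% of cells at 0 h and in 99.4% without 4sU, so nearly every cell had it and its gap lay in the number of UMIs. Klf2 was seen in 6.20% of cells at 0 h and in 11.9% without 4sU, Il7r in 9.10% and 16.7%, and Fli1 in 5.87% and 6.78%, again 0 h first. Without thinning the shares were 22.1% at 0 h and 64.2% without 4sU for Camk1d, 8.33% at 0 h and 18.3% without 4sU for Klf2, and 6.75% at 0 h and 9.38% without 4sU for Fli1. No cell type that lacks these genes could be set apart in either library, so the share that free RNA gives was not tested.

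**Figure D5:**
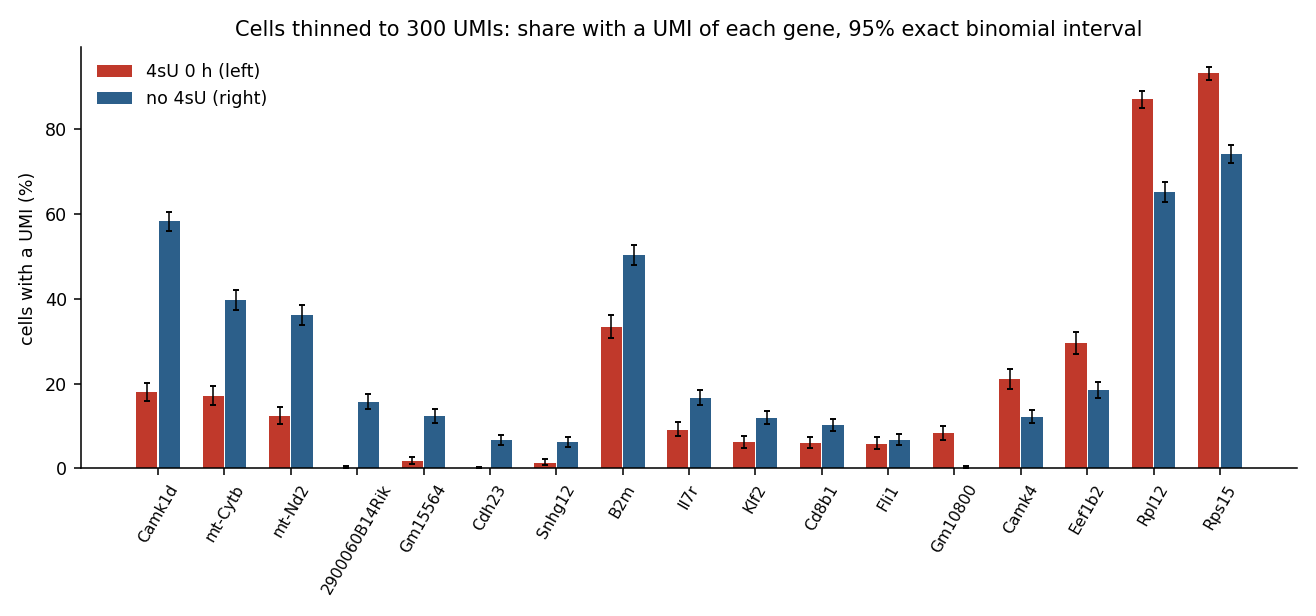
Share of cells (%) with at least 1 UMI of each of 17 genes after thinning every cell to 300 UMIs, in the 4sU 0 h library (red, left bar, 1209 cells) and the no 4sU library (blue, right bar, 1741 cells). Error bars are 95% exact binomial intervals and cover counting error only. Camk1d is at 17.9% and 58.3% and Rps15 at 93.3% and 74.3%, and the bars of Fli1 overlap.

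Set against all 5 labelled libraries, the no 4sU library lay above their range for 1082 of 2510 genes (43.1%) and below it for 230 (9.16%). For comparison, the 0 h library lay above the other 5 for 457 genes and below them for 423, and the 8 h library lay above for 473 and below for 786. In barcodes with at least 500 UMIs the no 4sU library lay above the labelled range for 735 genes and below it for 284. The 2 to 8 h libraries are stimulated, and resting genes such as Il7r were lower in them than in the 0 h library.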

How the data were processed

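Each deposited matrix gives the UMI count of every gene in every barcode and was written by cellranger 7.2.0, per the file headers. The build was mm10, per the submitters' processing notes, which also list a human build. Alignment settings, and whether intronic reads were counted, are not stated in the labels or headers. The deposited features and barcodes were used as they stand, so the authors' cell calling was kept. No doublet caller was run, and leaving out the top 5% of barcodes by UMIs was tried instead.

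Of 32285 features, rows with the same symbol were summed to 32245 symbols. UMIs were summed per library and divided by the library total (CPM). A log2 ratio is 0 h over no 4sU, with counts of 0 set to 3, for genes with 100 or more UMIs over both libraries. Ratio intervals are exact conditional (Clopper-Pearson) intervals and share intervals are exact binomial. Thinning drew 300 UMIs per cell without replacement. The ratio script was tested on simulated data. TMM factors came from edgeR 4.0.16 (R 4.3.3); all else ran in Python 3.11.15 with scipy 1.17.1.

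The members, the 37 gene lists and the rule for named genes were chosen with earlier results of these data known. Named are the 12 largest and 12 smallest ratios, the 10 genes with most UMIs, Fli1 and up to 4 members per list with the largest absolute ratio, with sex-linked genes and cell markers by their lists; a few other genes were named after their values were seen. Overlapping loci and near-identical copies can share reads, so their counts are uncertain.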

Additional observations from a re-analysis of the deposited data

How the results depend on the processing

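All values rest on 1 library per condition, so nothing here measures variation between cultures or animals, and genes under 100 UMIs over both libraries were not counted. No paired analysis was possible because each condition has 1 library. Ratios by share of labelled RNA were not run, since the mouse bulk lines could not be named. All 33 named genes past 2-fold kept their sign under all 10 alternatives of scaling and barcode choice, and 22 kept 2-fold in all 10. The alternatives of library size and scaling factor shift every log2 ratio by the same small amount. The sign of a gene past 2-fold could not change under them, so only the alternatives of barcode choice and per-barcode CPM could test it. The 6 genes higher and 82 lower at 0 h became 11 and 52 with TMM factors, 17 and 41 with median-of-ratios factors, 10 and 189 with the mean of per-barcode CPM, and 26 and 33 with a library size without ribosomal protein genes. They became 23 and 230 at 50 UMIs, 3 and 36 at 200 UMIs, and 67 and 421 at 1.5-fold. With barcodes of at least 500 UMIs 23 were higher and 89 lower. The choices without ribosomal protein genes and at 500 UMIs per barcode were added after seeing the data, as was a library size without Gm42418 and mitochondrial genes. The median over all genes, -0.18, was -0.064 with TMM factors, -0.00052 with median-of-ratios factors, -0.33 with per-barcode CPM, -0.027 at 500 UMIs per barcode and 0.084 without ribosomal protein genes. Over the 10 alternatives the median of ribosomal protein genes lay between 0.14 and 0.55 and that of mitochondrially encoded genes between -1.07 and -0.75. Genes of the no 4sU library above and below the labelled range numbered 495 and 122 in the smaller set of genes with at least 200 UMIs. They numbered 735 and 284 in barcodes with at least 500 UMIs. In shares of thinned cells 2 genes changed direction, Ikzf2 at 200 UMIs (-0.154 percentage points, 0 h minus no 4sU) and Rpl41 at 500 UMIs (-0.179). The cause was not tested.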

Other observations

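Histone genes outside the cell cycle and regulatory T cell genes had few members tested. Of 6 histone genes none was past 2-fold, and H2afy, which encodes a macroH2A variant, had 139 CPM at 0 h and 95.7 CPM without 4sU. H2afz, the H2A.Z variant, had 231 CPM at 0 h and 319 CPM without 4sU. Ikzf2, the Helios factor of regulatory T cells, had 76.6 CPM at 0 h and 53.7 CPM without 4sU, and Ctla4, an inhibitory receptor, had 43.8 CPM at 0 h and 65.5 CPM without 4sU, with intervals of both log2 ratios that included 0.

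A few genes of cytotoxic and memory T cells and natural killer cells, none past 2-fold, come from several lists and were set side by side after their values were seen. Klrd1, a lectin-like receptor, had 98.5 CPM at 0 h and 191 CPM without 4sU, and Nkg7, a cytotoxic granule protein, had 68.4 CPM at 0 h and 126 CPM without 4sU. Il2rb, a receptor chain for interleukins 2 and 15, had 112 CPM at 0 h and 194 CPM without 4sU. The memory and effector list of 14 genes, which holds Il2rb, summed to 208 CPM at 0 h and 297 CPM without 4sU. The plasma cell list of 8 genes summed to 64.3 CPM at 0 h and 86.9 CPM without 4sU, and Xbp1 was the only one of its genes with UMIs in either library.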
